A study of Mus musculus with 18 samples.

Results

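The 4 adult globin genes and 5 genes of heme synthesis were followed through 18 mouse RNA-seq libraries. The set was named gene by gene: Hba-a1 and Hba-a2 encode alpha globin, Hbb-bs and Hbb-bt beta globin, and Alas2, Uros, Urod, Cpox and Fech enzymes that build heme. All 9 were found by symbol among the 37620 gene IDs of the deposited count files. The mice were C57B6/129 hybrids of both sexes, 6 to 8 weeks old, given 2 mg/ml doxycycline in their drinking water to induce the histone. K36M and K9M mice carry histone H3 with the named lysine replaced by methionine, a change known to block methylation at that lysine, and the controls were labelled wildtype (WT). The time on doxycycline, the promoter behind the transgene and whether WT mice carried an H3 transgene are not given in the sources used here. RNA came from Lin- cKit+ bone marrow cells (BSPC, blood stem and progenitor cells) and from dissociated intestinal and testicular cells. Each of the 9 groups held 2 libraries from different mice. The same 6 mice, male since they gave testes, also gave intestine, and 6 others gave bone marrow. Sex was not part of any fit.

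Red cells carry oxygen on hemoglobin, a tetramer of alpha and beta chains that each hold a heme. Heme is made in a fixed order of steps, partly in the mitochondrion: an ALA synthase (ALAS2 in the erythroid line, ALAS1 elsewhere) makes aminolevulinate, then further enzymes, among them ALAD, UROS, UROD, CPOX and PPOX, build protoporphyrin, and FECH inserts the iron. In the marrow, globin genes and Alas2 come up strongly as progenitors commit to the red cell fate, with GATA1, KLF1 and TAL1 among the factors known to drive them. Every cell with a mitochondrion needs some heme, so the shared enzymes are found widely.

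The libraries held 13396303 to 21417915 reads counted in genes. Levels are given as CPM, counts relative to the library's total, after TMM scaling within a tissue, and calls are edgeR quasi-likelihood tests at a Benjamini-Hochberg adjusted p of 0.05 over all genes tested in a comparison. Kit was at 294 to 500 CPM in the bone marrow libraries and at most 30.0 CPM elsewhere. Summed levels of 8 intestinal epithelium markers were 13457 to 19548 CPM in intestine and 9.38 to 13.5 CPM in bone marrow. Germ cell markers summed to 7055 to 19998 CPM in testes, and intestine of mouse WT.1476 held 149 CPM of them, against 3.46 to 19.3 CPM in the other intestine libraries. In bulk RNA, more cells of a type and more RNA per cell cannot be told apart.

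The windows upstream of the members' start sites are shown because the genes moved together in bone marrow. RefSeq windows of 250 bases upstream (GRCm38.p6) were searched for 8 of the 9 members, without Fech. They make 9 windows, since Uros has a pair of annotated starts that gene counts cannot separate. Those of Hba-a2, Urod and the upstream Uros start are not printed, and the others are given on their gene's strand. The windows lie at chr11:32283422-32283671 (+) for Hba-a1, chr7:103827929-103828178 (-) for Hbb-bs, chr7:103813924-103814173 (-) for Hbb-bt, chrX:150547167-150547416 (+) for Alas2, chr7:133702501-133702750 (-) for the downstream Uros start and chr16:58669958-58670207 (+) for Cpox. Capitals mark matches to the GATA motif, searched on both strands as GATA with A or T before it and A or G after it.
Hba-a1: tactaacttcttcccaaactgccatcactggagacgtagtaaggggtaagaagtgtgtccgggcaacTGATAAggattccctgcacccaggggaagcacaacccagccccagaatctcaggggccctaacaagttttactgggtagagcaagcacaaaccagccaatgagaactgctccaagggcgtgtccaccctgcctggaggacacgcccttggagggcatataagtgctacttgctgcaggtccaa
Hbb-bs: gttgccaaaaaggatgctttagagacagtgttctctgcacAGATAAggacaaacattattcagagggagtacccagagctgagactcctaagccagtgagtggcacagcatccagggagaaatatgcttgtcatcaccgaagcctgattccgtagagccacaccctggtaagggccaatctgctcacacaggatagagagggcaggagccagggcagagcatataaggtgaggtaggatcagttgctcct
Hbb-bt: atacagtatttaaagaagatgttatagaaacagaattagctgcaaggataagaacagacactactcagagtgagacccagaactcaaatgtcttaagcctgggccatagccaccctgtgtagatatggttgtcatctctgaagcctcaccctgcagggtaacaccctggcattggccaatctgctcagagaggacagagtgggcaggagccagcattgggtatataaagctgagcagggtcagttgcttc
Alas2: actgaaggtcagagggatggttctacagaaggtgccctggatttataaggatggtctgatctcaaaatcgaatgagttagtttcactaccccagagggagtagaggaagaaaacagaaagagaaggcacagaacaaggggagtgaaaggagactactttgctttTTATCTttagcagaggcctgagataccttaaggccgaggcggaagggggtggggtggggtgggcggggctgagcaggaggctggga
Uros: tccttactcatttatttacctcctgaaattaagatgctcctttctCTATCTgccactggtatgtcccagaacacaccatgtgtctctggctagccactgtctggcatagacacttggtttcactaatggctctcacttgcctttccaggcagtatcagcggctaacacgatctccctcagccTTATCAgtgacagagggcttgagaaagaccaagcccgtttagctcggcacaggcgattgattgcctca
Cpox: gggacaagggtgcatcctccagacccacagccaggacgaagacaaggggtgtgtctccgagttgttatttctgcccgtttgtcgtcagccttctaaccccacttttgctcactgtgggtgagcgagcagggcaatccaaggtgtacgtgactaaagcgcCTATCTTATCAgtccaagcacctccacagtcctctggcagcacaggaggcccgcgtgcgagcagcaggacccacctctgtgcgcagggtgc
A GATA match was in 6 of the 9 windows, those of Hba-a1, Hba-a2, Hbb-bs, Alas2, Cpox and the downstream Uros start, against 26.5% of the 32851 windows in the table. Counting back from the start, the match lay at bases 183 to 178 in Hba-a1, 210 to 205 in Hbb-bs and 86 to 81 in Alas2, and Cpox had a pair that overlap by 1 base at 91 to 81. The CCAAT box matched in 5 windows, against 33.8% of all, and a TATA box (TATAAA, with the variants ATAAAA and, likewise, ATATAA) in 5, against 26.1%. The CACCC box, searched as CCNCNCCC on both strands, matched in 4 windows, against 45.9% of all. The 4 globin windows each held a CCAAT and a TATA match. Those of Hba-a1 and Hba-a2 shared an unbroken run of 247 bases, so their matches count the same letters. These are matches of letters only.

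All 9 genes were higher in K36M than in WT bone marrow, and both K36M libraries lay above both WT libraries in each, as they did in 37.3% of all genes tested. Of the 14604 genes tested there, 23.5% were called higher. Hba-a2 passed the filter on low counts through its K36M libraries alone, so its call is not read as a difference. Of the other members, Hba-a1, Hbb-bs, Hbb-bt and Alas2 rose most, 10.02-fold to 39.3-fold. Uros, Urod, Cpox and Fech, already abundant in WT, rose 1.90-fold to 2.82-fold. Apart from Hba-a2, the members' log2 fold changes ran from 0.92 to 5.30, against a median of -0.02 over all genes tested.

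Hbb-bt, one of the adult beta globin genes, was at 79.3 and 79.8 CPM in K36M bone marrow, 1.04 and 0.957 CPM in K9M and 1.27 and 2.76 CPM in WT. Its log2 fold change in K36M against WT was 5.30 ± 0.27 (SE, adjusted p = 4.82e-05 by edgeR's quasi-likelihood test), the 65th largest rise of 14604. Hbb-bs, its neighbour in the beta globin cluster on chromosome 7, was at 57.9 and 65.1 CPM in K36M, 6.15 and 3.40 CPM in K9M and 1.78 and 4.87 CPM in WT. The rise of Hbb-bs in K36M was 4.20 ± 0.50 on the log2 scale (SE, edgeR adjusted p = 0.00241). In both genes the K36M pair stood far above the 4 other libraries, which lay within a few CPM of each other.

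Of the alpha globins, Hba-a1 also rose. Hba-a1 was at 37.6 and 44.7 CPM in K36M, 2.30 and 2.15 CPM in K9M and 2.49 and 5.70 CPM in WT, a log2 fold change of 3.33 ± 0.35 in K36M against WT (edgeR adjusted p = 0.000701). Hba-a2 had 49 and 45 counts in the K36M libraries, 1 and 1 in K9M and 6 and 9 in WT. Its log2 fold change in K36M was 2.80 ± 0.39 (edgeR adjusted p = 0.000911), given as a value because the gene entered the fit through K36M. Sister globin transcripts share much of their sequence: 86.9% of the 50-base stretches of Hba-a2 were found unchanged in Hba-a1, and 65.8% of those of Hbb-bs in Hbb-bt. How reads were divided within each pair is therefore uncertain, and reads that align to both may have been dropped.

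**Figure D1:**
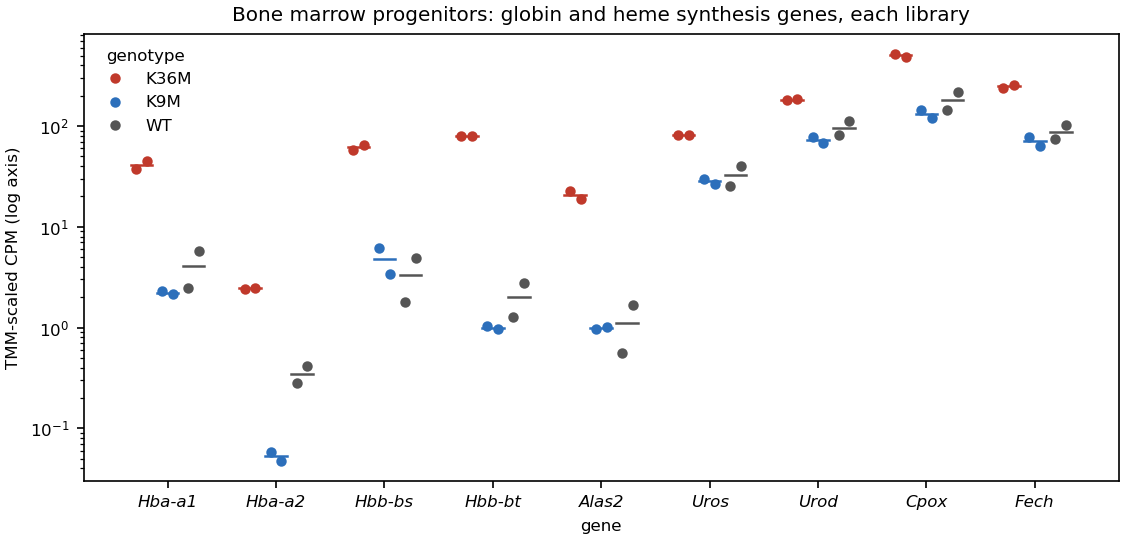
TMM-scaled CPM on a log axis of the 9 genes in the 6 bone marrow libraries, with K36M left of K9M and WT in each gene; points are libraries and bars are means of 2. Both K36M points lie above the 4 others in every gene, from 2.43 and 2.50 CPM for Hba-a2 to 518 and 489 CPM for Cpox, and in WT the pair is spread more widely than in K36M.

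Alas2, the erythroid ALA synthase that sets the pace of heme synthesis in red cell precursors, was at 22.6 and 19.0 CPM in K36M bone marrow, 0.978 and 1.0 CPM in K9M and 0.563 and 1.66 CPM in WT. Its log2 fold change in K36M against WT was 4.22 ± 0.40 (edgeR adjusted p = 0.000296). Alas1, which encodes the synthase of other tissues, went the other way, with 144 and 118 CPM in K36M, 476 and 469 CPM in K9M and 500 and 420 CPM in WT (log2 fold change -1.81 ± 0.12 against WT, edgeR adjusted p = 8.52e-05). Alas2 took 13.6% and 13.8% of the Alas1 and Alas2 counts in the K36M libraries (exact 95% intervals 12.4% to 14.8% and 12.5% to 15.3%). In K9M its share was 0.205% and 0.214%, and in WT 0.112% and 0.392%. Alas1 counts thus remained the larger in all 6 libraries, and the summed CPM of both genes was 167 and 137 in K36M, 477 and 470 in K9M and 501 and 422 in WT.

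The later enzymes of the set also rose in K36M bone marrow. Uros, which closes the tetrapyrrole ring, was at 82.1 and 81.2 CPM in K36M, 30.0 and 26.3 CPM in K9M and 25.5 and 40.1 CPM in WT (log2 fold change 1.31 ± 0.20 against WT, edgeR adjusted p = 0.00316). Urod, which removes carboxyl groups from that ring, was at 180 and 185 CPM in K36M, 77.0 and 67.2 CPM in K9M and 80.6 and 112 CPM in WT (0.92 ± 0.15, adjusted p = 0.00338). It had the smallest rise of the 9, and its K36M libraries still lay above both others' ranges. Cpox, the mitochondrial coproporphyrinogen oxidase, was at 518 and 489 CPM in K36M, 143 and 121 CPM in K9M and 146 and 219 CPM in WT (1.47 ± 0.21, adjusted p = 0.00358). Fech, ferrochelatase, the last step, was at 239 and 257 CPM in K36M, 77.7 and 63.9 CPM in K9M and 73.8 and 102 CPM in WT (1.496 ± 0.170, adjusted p = 0.000925). Of the enzymes outside the set, Alad (0.98 ± 0.15, edgeR adjusted p = 0.00235) and Ppox (1.02 ± 0.20, adjusted p = 0.00921) also rose. The 7 enzyme genes Alas2, Alad, Uros, Urod, Cpox, Ppox and Fech were thus called higher, with a summed level of 1412 and 1420 CPM in K36M, 497 and 424 CPM in K9M and 483 and 698 CPM in WT.

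**Figure D2:**
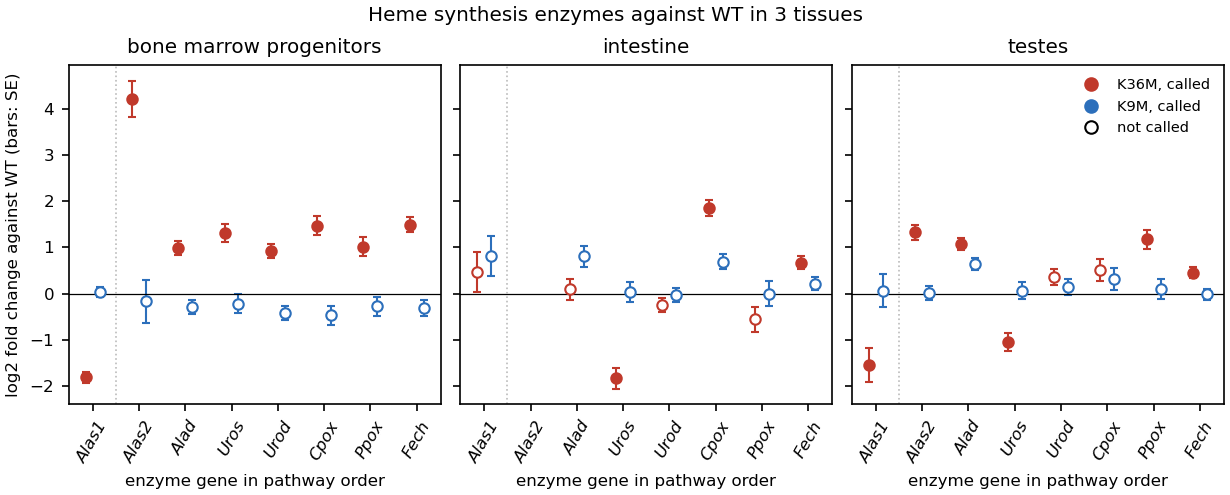
Log2 fold change against WT (bars, SE) of Alas1, left of the dotted line, and 7 enzyme genes named on the axis in pathway order, for K36M (red) and K9M (blue) in bone marrow progenitors, intestine and testes; filled points were called at an adjusted p of 0.05. In bone marrow K36M values run from 0.92 to 4.22 and Alas1 is at -1.81, while Uros lies at -1.84 in intestine and -1.05 in testes.

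Per kilobase of annotated exon, which allows a rough comparison of genes, the order of levels differed between the genotypes. In K36M bone marrow Hbb-bt led with a mean of 113 CPM per kilobase, then Hbb-bs with 80.0, Cpox with 75.6, Urod with 70.4 and Hba-a1 with 50.7. In K9M the order began with Urod at 27.8, Cpox at 19.8, Uros at 7.87 and Hbb-bs at 6.22. In WT it began with Urod at 37.1, Cpox at 27.4, Uros at 9.18 and Fech at 6.36, and all 4 globins were at 5.04 or below. The lengths are those of another annotation build and join all annotated exons of a gene, 13838 bases for Fech, so the order depends on the annotation. The globin levels leave out reads shared by sister genes.

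The make-up of the globin counts also differed. Hbb-bt was 57.8% and 55.1% of the Hbb-bt and Hbb-bs counts in K36M bone marrow, with exact 95% intervals of 56.0% to 59.7% and 53.1% to 57.0%. In K9M it was 14.4% and 22.0% (8.76% to 21.8% and 13.97% to 31.9%), and in WT 41.5% and 36.1% (29.4% to 54.4% and 28.8% to 44.0%). The 3 genotypes' libraries did not overlap in this share, and no test was run on it. Alpha globin was 22.6% and 24.6% of the alpha and beta counts in K36M, 24.7% and 33.6% in K9M and 47.6% and 44.5% in WT. These intervals cover counting error only. Alleles of the hybrid mice were not told apart in the counts, and their part in the split was not tested.

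**Figure D3:**
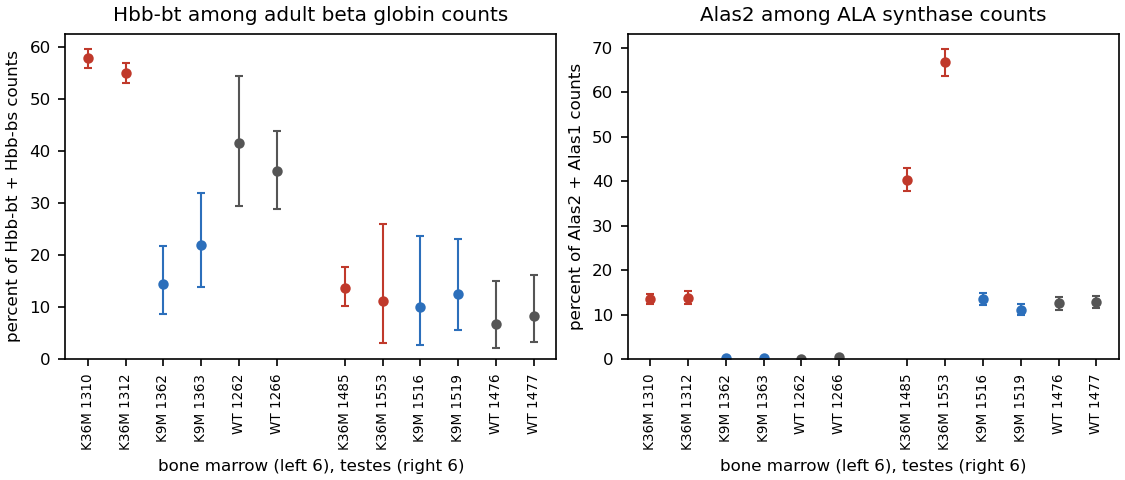
Left, Hbb-bt as a percent of Hbb-bt and Hbb-bs counts, and right, Alas2 as a percent of Alas2 and Alas1 counts, in each bone marrow and testes library (mouse numbers on the axis; K36M red, K9M blue, WT grey); bars are exact 95% binomial intervals. Hbb-bt is above 55% in K36M bone marrow and below 14% in every testes library, and Alas2 reaches 40.4% and 66.8% in K36M testes.

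K9M bone marrow gave no call against WT in any of the 9 genes, where 1.01% of all genes were called in either direction. At an unadjusted p under 0.05, 3 of the 9 passed, against 14.2% of all genes. In 5 genes (Hba-a1, Hba-a2, Hbb-bt, Urod and Cpox) both K9M libraries lay below both WT libraries, as in 22.6% of all genes. Hba-a2 had 2 counts in K9M and 15 in WT, a ratio of 0.150 with a counting interval of 0.0166 to 0.645. The WT pair itself was uneven: mouse WT.1266 was above mouse WT.1262 in all 9 members, 1.39-fold to 2.94-fold, against 49.8% of all genes. Without mouse WT.1262, 5 of the 9 genes were called lower in K9M, where 2.12% of all genes were, and without mouse WT.1266 none was, where 0.598% were.

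Against K36M, K9M bone marrow was lower in all 9 genes, where 26% of all genes were called lower. The call of Hba-a2, which passed the filter on low counts through K36M alone, is not read as a difference here either. The log2 differences ran from -1.34 ± 0.16 for Urod to -6.32 ± 0.30 for Hbb-bt, with edgeR adjusted p from 2.93e-05 to 0.00275. Hba-a2 in K9M was 0.0212 of its K36M level by counts (counting interval 0.00253 to 0.0788). The comparison shares its K36M libraries with K36M against WT, so it is no second test of the same rise.

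Genes that serve globin and heme were read from lists of textbook members. Of 9 other globin genes with a symbol, Hbq1b, a theta globin, was the 1 tested in bone marrow, with 31 and 22 counts in K36M, 0 and 0 in K9M and 3 and 6 in WT. Its log2 fold change in K36M against WT was 2.69 ± 0.54 (edgeR adjusted p = 0.00618). Hbq1b too passed the filter on low counts through K36M alone, so this call is not read as a difference. The embryonic globins Hbb-y, Hbb-bh1 and Hba-x had at most 2 counts in any bone marrow library.

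Of the mitochondrial transport and support genes, 12 of 20 tested were higher in K36M bone marrow and 0 lower, with a median log2 fold change of 0.39. Slc25a38, the carrier that brings glycine to ALA synthase, was at 110 and 113 CPM in K36M against 34.5 and 45.8 CPM in WT (1.47 ± 0.14). Abcb10, an inner membrane transporter needed for erythroid heme synthesis, rose by 1.23 ± 0.11 and Fam210b, a mitochondrial protein of erythroid iron handling, by 1.54 ± 0.14, all 3 with edgeR adjusted p of 0.000266 or less. Slc25a37, mitoferrin, the mitochondrial iron importer, was not called, at 144 and 129 CPM in K36M and 137 and 173 CPM in WT.

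Iron genes were higher in 7 and lower in 1 of 14 (median 0.21), where 23.5% of all genes were called higher and 24.6% lower. Tfrc, the transferrin receptor, was at 1032 and 972 CPM in K36M and 336 and 420 CPM in WT (1.41 ± 0.10, edgeR adjusted p = 0.000103). Fth1, the ferritin heavy chain, rose by 0.82 ± 0.10 and Slc11a2, which moves iron out of endosomes, by 1.17 ± 0.18, and Fbxl5, the iron-sensing ubiquitin ligase subunit, fell by 0.36 on the log2 scale. Among heme export, breakdown and sensing genes, 5 of 10 were higher and 1 lower (median 0.42), beside the same shares of all genes. Slc48a1, a heme transporter (0.49 ± 0.07), Eif2ak1, the heme-regulated kinase that restrains globin translation when heme is short (0.43 ± 0.07), and Nfe2l2 (0.45 ± 0.07) rose, and Hmox2, a heme oxygenase, fell by 0.51.

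Erythroid transcription factors were higher in 12 and lower in 2 of 15 (median 0.74). Sox6 rose by 1.56 ± 0.17 and Zbtb7a, a repressor of fetal globin in humans, by 0.54 ± 0.06. Myb, a progenitor factor that declines during red cell maturation, was at 463 and 443 CPM in K36M and 783 and 772 CPM in WT (-0.78 ± 0.05, edgeR adjusted p = 5.29e-05), and Gata2 fell by 0.30. Gata1 (1.38 ± 0.28) and Klf1 (1.23 ± 0.34), named here after their values were seen, rose with edgeR adjusted p of 0.0151 and 0.0413. Red cell membrane and late erythroid genes were higher in 13 and lower in 0 of 25 (median 1.31), among them Gypc, glycophorin C (1.28 ± 0.08), Tspo2 (2.76 ± 0.22) and Epb41, the cytoskeletal protein band 4.1 (0.81 ± 0.11). Against the 23.5% of all genes called higher, the share was 60% in the transport list, 80% among transcription factors and 52% in the membrane list. In K9M against WT none of these lists had a call, where 1.01% of all genes were called in either direction.

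Other cell types' markers moved in the same libraries. Granulocyte-monocyte markers were lower in 9 of 10 in K36M bone marrow, where 24.6% of all genes were called lower, with summed levels of 5066 and 3836 CPM in K36M, 16723 and 16368 CPM in K9M and 18959 and 14848 CPM in WT, and none of the 10 at 0. Mast cell and basophil markers were lower in 6 of 6 (90.8 and 72.2 CPM in K36M, 315 and 298 CPM in K9M, 384 and 326 CPM in WT). Stem and progenitor markers were lower in 5 and higher in 2 of 10, and Kit itself was at 294 and 296 CPM in K36M and 436 and 457 CPM in WT (-0.60 ± 0.06, edgeR adjusted p = 0.000171). Megakaryocyte and platelet markers were higher in 3 and lower in 2 of 7, where 23.5% of all genes were called higher. Their part in the rise of the 9 genes was not tested.

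The genes whose pattern over the 6 bone marrow libraries was most like that of Hbb-bt, by root mean square difference of centred log2 CPM, were Fam124a, Aqp3, Erfe, Ddn and Fat1, with differences of 0.34 to 0.41 against a spread of Hbb-bt itself of 2.75 (SD of log2 CPM). For Alas2 they were Rps6ka6, Trpv5, Slc6a9, Ikzf4 and Tead1 (0.20 to 0.30), and for Fech they were Zfpm1, Tubb2a, Art4, Gclm and Ttc39b (0.05 to 0.07). Erfe, which encodes a hormone made by erythroblasts, was at 66.9 and 65.4 CPM in K36M, 1.27 and 1.24 CPM in K9M and 1.17 and 1.47 CPM in WT. Zfpm1, the GATA1 partner FOG1, was at 405 and 455 CPM in K36M, 132 and 116 CPM in K9M and 133 and 190 CPM in WT. The 6 libraries hold a single strong contrast, that of K36M with the rest.

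In both solid tissues Uros fell in K36M, the opposite of its change in marrow. In intestine 5 members passed the filter on low counts (Hbb-bs, Fech, Urod, Uros and Cpox), and the other 4 had at most 39 counts in any library. In K36M against WT, Cpox and Fech were higher and Uros lower, where 23.3% of all genes were called in either direction. Uros was at 3.36 and 3.52 CPM in K36M intestine, 12.2 and 12.97 CPM in K9M and 12.3 and 12.3 CPM in WT (-1.84 ± 0.22 against WT, edgeR adjusted p = 0.00422). The K36M pair stood below all 4 other libraries, which lay close together.

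Cpox in intestine was at 217 and 256 CPM in K36M, 98.7 and 113 CPM in K9M and 65.4 and 65.6 CPM in WT (1.85 ± 0.16, edgeR adjusted p = 0.00195). Fech was at 78.3 and 75.1 CPM in K36M, 57.9 and 53.8 CPM in K9M and 46.7 and 49.8 CPM in WT (0.67 ± 0.14, edgeR adjusted p = 0.0192). For both, the 3 genotypes stood apart with K9M between. The call of Fech was lost without either WT mouse (adjusted p = 0.120 without WT.1476 and 0.101 without WT.1477) or either K9M mouse (0.0623 without 1516 and 0.0603 without 1519). Urod did not pass the test, at 35.1 and 32.9 CPM in K36M, 38.0 and 40.3 CPM in K9M and 37.3 and 43.2 CPM in WT. Alad, Ppox and Alas1 were not called in K36M intestine. K9M intestine had 0 calls among the 5 against WT, where 0.211% of all genes were called, and 1 member at an unadjusted p under 0.05, against 10.3% of all genes, which was Cpox (0.69 ± 0.16, adjusted p = 0.209). DESeq2 called 1 member there. Against K36M, K9M intestine was higher in Uros (1.87 ± 0.22) and lower in Cpox (-1.16 ± 0.16), where 25.1% of all genes were called. The Cpox call was lost without K9M mouse 1516 (adjusted p = 0.0671) or 1519 (0.0509). Intestine of K36M mice also had lower T and NK cell markers, in 5 of 6, where 11.7% of all genes were called lower (summed levels 35.8 and 28.0 CPM in K36M and 255 and 275 CPM in WT), whose part in these values was not tested.

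In testes 7 members were tested, all but Hba-a2 (1 to 4 counts a library) and Hbb-bt (4 to 47). Alas2 and Fech were higher in K36M and Uros lower, where 49.5% of all genes were called in either direction. Alas2 was at 33.1 and 41.4 CPM in K36M testes, 15.9 and 13.98 CPM in K9M and 15.4 and 14.3 CPM in WT (1.33 ± 0.16, edgeR adjusted p = 0.00268). Of the 9 groups of the series, K36M testes had the highest Alas2. Alas1 fell there too, to 48.9 and 20.6 CPM in K36M against 108 and 96.9 CPM in WT (-1.56 ± 0.37, edgeR adjusted p = 0.0155), and Alas2 took 40.4% and 66.8% of their counts in K36M, 13.5% and 11.1% in K9M and 12.5% and 12.9% in WT.

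Whether part of the Alas2 count belongs to Apex2, a DNA repair gene on the opposite strand, is uncertain. The annotated genes overlap by 23264 bases, the whole span of Alas2, whose exons hold 2403 bases. Overlaps here are of gene spans with introns included, and shared exon bases were not computed. Whether strand was used in counting is not given in the sources used here. Apex2 itself was at 5.40 and 6.53 CPM in K36M testes and 2.88 and 3.80 CPM in WT (0.83 ± 0.25, edgeR adjusted p = 0.0335). In bone marrow Apex2 was not called (0.13 ± 0.15, adjusted p = 0.509). Uros overlaps Bccip by 740 bases, and Bccip was not called in K36M intestine (0.40 ± 0.18, adjusted p = 0.152) or testes (0.05 ± 0.17, adjusted p = 0.816), and was higher in K36M bone marrow by 0.52 ± 0.07. Cpox overlaps Gpr15 by 204 bases.

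Uros in testes was at 6.36 and 4.68 CPM in K36M, 12.7 and 11.2 CPM in K9M and 11.5 and 11.4 CPM in WT (-1.05 ± 0.19, edgeR adjusted p = 0.00652). Without mouse WT.1476 or WT.1477 its adjusted p was 0.0527 and 0.0522. Fech was at 45.5 and 45.6 CPM in K36M, 31.4 and 34.7 CPM in K9M and 33.7 and 33.0 CPM in WT (0.45 ± 0.12, edgeR adjusted p = 0.0197), and its call was lost without any 1 WT or K9M mouse (adjusted p 0.0538 to 0.145), with library size alone (0.30, adjusted p = 0.0899), with 2 genotypes alone (0.0540) and with all 18 libraries (0.0616). The number of members called was 6 without K36M mouse 1553, Hba-a1 and Hbb-bs among them, and 1 without either WT mouse, and the share of all genes called moved likewise, to 51.8% without mouse 1553, 11.5% without WT.1476 and 12.7% without WT.1477. Alad (1.07 ± 0.14) and Ppox (1.17 ± 0.20) also rose in K36M testes, while Urod and Cpox did not pass the test, at 10.97 and 11.6 CPM and 5.46 and 5.42 CPM in K36M against 7.62 and 9.99 CPM and 4.56 and 3.14 CPM in WT. Germ cell markers in K36M testes were higher in 3 and lower in 2 of 6, with summed levels of 13698 and 19998 CPM in K36M and 7055 and 7297 CPM in WT, and their part in these values was not tested. K9M testes had 0 calls against WT, where 0.0678% of all genes were called, and 0 members at an unadjusted p under 0.05, against 2.81% of all genes, nor did DESeq2 call any. Against K36M, K9M testes was higher in Uros (1.11 ± 0.19) and lower in Alas2 (-1.32 ± 0.16), Fech (-0.46 ± 0.12) and Hba-a1 (-2.87 ± 0.94, edgeR adjusted p = 0.0432), where 49.2% of all genes were called. Leaving out 1 library ended these calls in many instances: that of Hba-a1 without any but K36M mouse 1553 (adjusted p 0.0736 to 0.352, with -0.65 without K36M mouse 1485), that of Fech without any WT or K9M mouse (0.0619 to 0.147), and those of Alas2 (0.0521) and Uros (0.0612) without K9M mouse 1516.

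The globins of both solid tissues were highest in K36M mouse 1485. Hbb-bs was at 13.1 CPM in its intestine and 0.425 CPM in that of K36M mouse 1553, and at 17.9 CPM and 1.97 CPM in their testes. WT intestine had 0.194 and 1.42 CPM and WT testes 4.14 and 3.66 CPM of Hbb-bs. Hba-a1 went with it, at 2.91 and 0.121 CPM in K36M intestine and 5.52 and 0.678 CPM in K36M testes, mouse 1485 first. Slc4a1, the red cell anion exchanger, named here after its values were seen, was at 1.42 and 0 CPM in K36M intestine and 7.62 and 1.23 CPM in K36M testes in the same order, and at 0 in all 4 other intestine libraries. Alas2 did not go with it in testes, where mouse 1553 was the higher. Without mouse 1485, the K36M log2 fold change of Hbb-bs was -0.88 in intestine (adjusted p = 0.744) and -1.02 in testes (adjusted p = 0.0103), against 3.10 ± 1.67 and 1.35 ± 0.84 with it (edgeR adjusted p = 0.222 and 0.220). Hbb-bt in K36M intestine had 35 counts in mouse 1485 and 1 in mouse 1553, against 0 and 3 in WT. The part of blood left in the dissociated tissue was not tested.

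**Figure D4:**
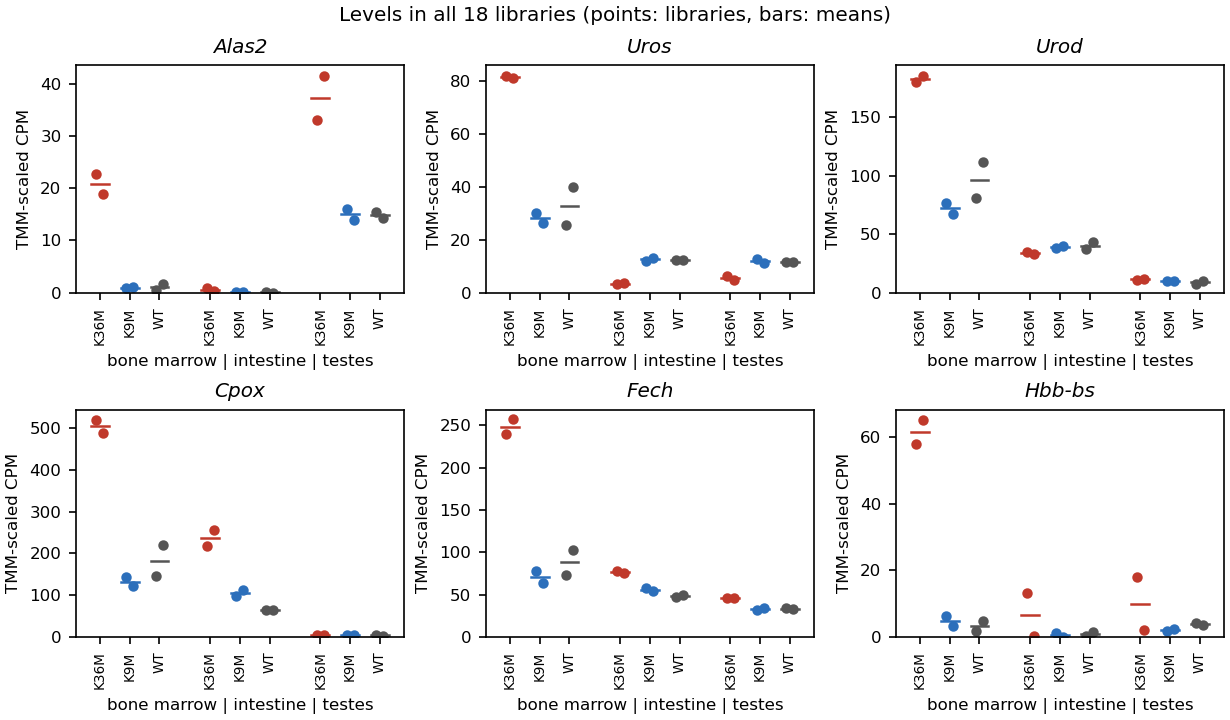
CPM, TMM-scaled within each tissue, of Alas2, Uros, Urod, Cpox, Fech and Hbb-bs in all 18 libraries, with K36M, K9M and WT from left to right in each tissue; points are libraries, bars means of 2, and each panel starts at 0. K36M bone marrow is highest in each panel but that of Alas2, where K36M testes is at 33.1 and 41.4 CPM, and Uros in K36M intestine and testes lies below K9M and WT of the same tissue.

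The 9 groups were ranked by mean level with all 18 libraries under 1 TMM scaling, a choice made after seeing the data, since levels scaled within a tissue do not share a base. On this scale K36M bone marrow had the highest mean in 8 of the 9 genes, as in 10.03% of the 31933 genes with any count. In those 8 genes both its libraries also lay above the next group, which was not counted over all genes. The next group was K36M intestine for Cpox (389 ± 20.4 CPM in K36M bone marrow and 314 ± 29.8 CPM in K36M intestine, SD, n = 2 each) and for Fech (192 ± 7.81 and 102 ± 5.33 CPM), and in both K36M intestine stood apart from the groups below. It was WT bone marrow for Urod (141 ± 1.55 and 72.8 ± 16.6 CPM) and Uros (63.1 ± 1.2 and 24.9 ± 7.80 CPM). For each globin the second and the third group overlapped. Alas2 alone was led by K36M testes (34.8 ± 5.09 CPM), then K36M bone marrow (16.1 ± 2.17 CPM), which overlapped WT and K9M testes (14.3 ± 0.776 and 14.3 ± 1.15 CPM). The intestine groups were at 0.763 CPM of Alas2 or below. Uros was lowest in K36M intestine at 4.57 ± 0.0483 CPM, which overlapped K36M testes at 5.17 ± 1.17 CPM. With scaling within a tissue, WT bone marrow came second for Fech and overlapped K36M intestine for Cpox.

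Whether the K36M effect differed between tissues was tested directly. The effect in bone marrow minus that in intestine was higher for Uros (3.14 ± 0.29, edgeR adjusted p = 0.000198), Urod (1.15 ± 0.22) and Fech (0.81 ± 0.22, adjusted p = 0.0259), where 21.1% of all genes were called. Cpox rose in both tissues and the difference was not called, at -0.40 ± 0.26. For the effect in bone marrow minus that in testes, Uros (2.42 ± 0.30), Alas2 (2.95 ± 0.40), Fech (1.10 ± 0.21) and Cpox (1.01 ± 0.31) were called, where 35.3% of all genes were. Hba-a2, at 1 to 4 counts in testes, entered this fit through its K36M bone marrow counts, so its value is not read as a difference. For intestine minus testes Cpox alone was called (1.30 ± 0.28, adjusted p = 0.00935, and 0.0557 without testes of WT.1476), where 22.5% of all genes were. In bone marrow minus intestine the 4 globins had SE of 1.58 to 2.36 and none was called. The Fech call of bone marrow minus intestine was lost without mouse WT.1262, without either K36M marrow mouse or without intestine of WT.1477 (adjusted p 0.0612 to 0.0827). In bone marrow minus testes, the Cpox call was lost in 7 of the 12 fits with 1 library left out (0.0532 to 0.204) and by limma-voom (0.141). Within K36M against WT, Uros thus had called effects in opposite directions in bone marrow and in each solid tissue, and both differences remained called whichever library was left out.

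Between the tissues of WT mice, the share of members called was no larger than that of all genes. WT bone marrow was higher than WT testes in Cpox (5.22 ± 0.24), Urod (3.08 ± 0.18), Uros (1.16 ± 0.20), Fech (1.04 ± 0.15), Hba-a1 and Hbb-bt, and lower in Alas2 (-4.09 ± 0.32), where 86.8% of all genes were called and their median was -0.70. WT intestine was likewise higher than WT testes in Cpox (4.83 ± 0.22), Urod (2.92 ± 0.20), Fech (1.27 ± 0.14) and Uros (0.84 ± 0.21) and lower in Alas2 (-6.25 ± 0.63), where 82.9% of all genes were called and their median was -0.64. WT bone marrow against WT intestine gave 6 members called higher, where 75.7% of all genes were called. Of these Alas2, Hba-a1 and Hbb-bt did not pass the filter on low counts in intestine alone and entered through bone marrow, as Hbb-bt did against testes, so their calls are given as values and not read as differences. The number called moved to 0 without mouse WT.1266, 1 without intestine of WT.1476 and 2 without intestine of WT.1477 or either K36M marrow mouse. In bone marrow against testes, the calls of Hba-a1 and Hbb-bt were lost without mouse WT.1266 (log2 differences 1.56 and 1.64) or either WT testes library. That of Hbb-bt was also lost without either K9M marrow mouse. Both were lost with no filter on low counts (edgeR adjusted p = 0.0643 and 0.0818) and with all 18 libraries (edgeR adjusted p = 0.0654 and 0.0790). In intestine against testes the call of Uros was lost without intestine of WT.1476 (log2 difference 0.58) and by DESeq2 (adjusted p = 0.0521). It was also lost with DESeq2 size factors in edgeR (adjusted p = 0.0799) and with no filter on low counts (edgeR adjusted p = 0.0911). With library size alone it was lost too, at a log2 difference of 0.064. The WT testes held more Alas2 than WT bone marrow, 15.4 and 14.3 CPM against 0.563 and 1.66 CPM, levels scaled within each tissue.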

How the data were processed

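The deposited files held raw read counts per gene for each of 18 libraries. Per the submitters' processing notes, the authors used the mm9 build with the aligner STAR and the counter HTSeq. Versions, annotation and strand setting are not given in the sources used here. Per the labels, polyA RNA was made into SMARTer v3 libraries and sequenced on a HiSeq2500. The files share 37620 gene IDs. A further 5 entries without a gene name stayed out of library sizes and tests: 9.89% to 26.0% of a library's entries lay in no feature, 15.3% to 29.1% were not uniquely aligned and 2.21% to 4.17% were ambiguous. Symbols for 32897 IDs, exon lengths and gene overlaps came from GENCODE M21 (GRCm38, another build), and promoter windows from RefSeq (GRCm38.p6).

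Counts were fitted in R 4.3.3 with edgeR 4.0.16 (TMM, filterByExpr, robust quasi-likelihood), 1 fit per tissue with 3 group means and 3 residual degrees of freedom. Effects between tissues were interactions, and WT groups contrasts, over 12 libraries of a tissue pair with 6 residual degrees of freedom. P-values were adjusted by Benjamini-Hochberg over all genes tested. Each SE was worked back from the test, as the absolute log2 fold change divided by the square root of the quasi-likelihood F. The tests were run on simulated counts first. DESeq2 1.42.0, limma-voom (limma 3.58.1), other scalings and filters, and each library left out were alternatives. Replicates differed by more than sampling noise, with chi-square per degree of freedom of 2.39 to 66.1. The labels name the same mice for intestine and testes, and each mouse's departures from the mean of its group, set against each other over genes, had a correlation of -0.05 for K36M, 0.11 for K9M and 0.05 for WT. A mouse block was an alternative.

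The members, lists and tests were chosen with earlier results of these data known. The text names all 9 members, the enzymes Alas1, Alad and Ppox, the 3 members of each list with the smallest adjusted p and any against its list's direction, and the 5 genes most like Alas2, Fech and Hbb-bt. Exact binomial intervals are at 95% and cover counting error only. The symbols Ahsp, Fdx2, Ly76 and Gr1 matched no gene ID. One promoter, that of Fech, is not shown, and 1 gene of the rule for named genes is not reported here.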

Additional observations from a re-analysis of the deposited data

Results flagged for a closer look

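In 8 instances the effect of K36M against WT differed between tissues by a test of the difference itself, an interaction in edgeR. For bone marrow minus intestine, the differences on the log2 scale were 0.81 for Fech, 1.15 for Urod and 3.14 for Uros, where 21.1% of all genes were called. For bone marrow minus testes they were 1.01 for Cpox, 1.10 for Fech, 2.95 for Alas2 and 2.42 for Uros, where 35.3% of all genes were called. For intestine minus testes the difference was 1.30 for Cpox, where 22.5% of all genes were called. The calls of Fech in bone marrow minus intestine and of Cpox in both its differences were lost in some fits with 1 library left out. Uros was the member whose effect changed direction, higher in K36M bone marrow and lower in K36M intestine and testes. The comparisons share the K36M and WT libraries of each tissue.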

How the results depend on the processing

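In bone marrow, all 270 member values of K36M against WT and of K9M against K36M kept their direction and their call under every alternative, those without 1 library included. These include the values of Hba-a2, whose calls are not read as differences, and both comparisons share their K36M libraries. Elsewhere calls were less firm. The share of all genes called under each setting is not given beside the counts below, so they are not read as a trait of the members. The number of members called in K36M against WT was 6 with no filter on low counts in intestine, and in K9M against WT intestine it was 1 by DESeq2 and 1 with no filter. K9M against K36M gave 4 in intestine with no filter. In testes it gave 2 with library size alone, with 2 genotypes alone, with all 18 libraries or at an adjusted p of 0.01. WT bone marrow against WT intestine gave 3 by DESeq2 or with all 18 libraries and 0 at 0.01. The K36M difference of bone marrow minus testes gave 3 at 0.01, and that of intestine minus testes 2 by DESeq2. Leaving out 1 library gave 0 to 5 for K9M against WT in bone marrow, 2 to 3 for K36M against WT and 1 to 3 for K9M against K36M in intestine, 1 to 6 and 0 to 6 in testes, 2 to 3, 3 to 7 and 0 to 2 for the tissue differences (marrow minus intestine, marrow minus testes, intestine minus testes), and 0 to 7, 5 to 7 and 4 to 5 for the WT tissue pairs in that order. Values near 0 changed sign: Alas2 in K9M against WT was 0.031 by limma-voom in bone marrow and -0.00051 with all 18 libraries in testes, and Uros in K9M against WT intestine was -0.051 with library size alone and -0.017 with all 18. Without 1 library, Hbb-bs ranged from -0.88 to 5.04 in K36M against WT intestine, from -1.02 to 2.18 in testes, from -0.053 to 1.40 in K9M against WT bone marrow and from -2.69 to 1.85 in intestine, and in K9M against K36M from -5.76 to 0.74 in intestine and from -3.05 to 0.15 in testes. In K9M against WT, Alas2 ranged from -0.74 to 0.81 in bone marrow and from -0.089 to 0.10 in testes, and Uros from -0.52 to 0.14 in bone marrow, while in testes Uros was between -0.031 and 0.15, Urod between -0.036 and 0.36 and Fech between -0.086 and 0.058, and in intestine Uros was between -0.011 and 0.083 and Urod between -0.14 and 0.079. With the mouse as a block, 5 members were called in WT intestine against WT testes and 1 in the K36M difference of these tissues (Cpox, 1.28, adjusted p = 0.030), and no call changed. The causes were not tested. With 2 mice a group, few residual degrees of freedom and globin counts below 10 in many libraries, absence of a call does not show that levels were alike.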
